A study of Homo sapiens with 2 samples.

Results

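Cells build cholesterol and fatty acids from the same cytosolic acetyl-CoA, and 35 human transcripts of these routes were examined for contacts with the RNA-binding protein RBMS3. The members were chosen by name: enzymes of the mevalonate and sterol steps, the regulators of sterol sensing, and the enzymes that make, desaturate, elongate and activate fatty acids. A listed RBMS3 site was given to a member when its deleted base lay inside the gene on the gene's strand (hg38, GENCODE release 44). By this rule the 35 members, of 20046 protein-coding genes, held 145 of the 27706 listed sites, and 28 members held at least 1. A site here is the position of a deletion. In CLIP-seq the protein is crosslinked to RNA by ultraviolet light and recovered. The reverse transcriptase can skip a base where a remnant of protein stays on the RNA, so that deletions can mark contacts. Whether each listed deletion marks a contact was not tested.

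The sites came from cells of the established human line MDA-MB-231 (triple-negative breast cancer), which were made to express FLAG-tagged RBMS3 and were irradiated before the protein was recovered through the tag. There was 1 group with 2 biological replicates, and the authors called a single list of sites on the pooled tags of both. No value below therefore has an error between replicates, a site can rest on 1 replicate, and no control library was analysed here. The title of replicate 2 names MDA-MB-231, whereas its source and cell line labels say MDA-MB-232, and it was taken as its title says. The tagged protein was added to cells that also have RBMS3 of their own, and the labels do not give its level. Depth is given for each site, by its tags, which are unique sequenced fragments of RNA over the position, and by how many of these tags have the deletion. Member sites had 7 to 52586 tags (median 9163) and 7 to 1591 deletions (median 69), and deletions were in a median of 1.25% of the tags (0.131 to 100%), or 4.91% with each cluster of neighbouring sites counted by the site with the most deletions. Intervals below are 95% Wilson intervals, which cover counting error only.

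Cholesterol is made from acetyl-CoA through mevalonate, isoprenoid diphosphates, squalene and lanosterol. The transcription factors encoded by SREBF1 and SREBF2 switch on most of these enzymes as well as those of fatty acid synthesis. They lie in the endoplasmic reticulum membrane with the sterol-sensing escort SCAP, and INSIG1 and INSIG2 hold the complex there when sterol is plentiful. Saturated fatty acids made by FASN are coupled to coenzyme A by ACSL enzymes, and desaturases and ELOVL enzymes desaturate and elongate such chains. The ends of nearly all of these messages are set by cleavage and polyadenylation, which is directed by the poly(A) signal AATAAA in the 3′UTR or by its common variant ATTAAA.

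Leading 3′UTR sites, meaning the site with the most deletions in a member, mostly sat beside such a signal. The sequences around them are printed on the transcript strand, with the hg38 coordinates of the 30 bases, for the member whose leading site had the most deletions in each of 6 groups of pathway steps. The signal is in capitals, and the position of the deleted base is counted from 1 at the 5′ end.

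IDI1 (chr10:1040031-1040060, minus strand, deleted base 20): atgaagaaaAATAAAaatttatttcttgca
DHCR7 (chr11:71434418-71434447, minus strand, deleted base 11): agttcatctttatATTAAActtcccctgtt
INSIG1 (chr7:155310203-155310232, plus strand, deleted base 11): cattttttacttttATTAAAggttcaaaac
ACLY (chr17:41866929-41866958, minus strand, deleted base 12): atagtctggtttaAATAAActatatagtaa
SCD (chr10:100364789-100364818, plus strand, deleted base 8): gattgtgtttgttcatAATAAAagtgaagt
ELOVL5 (chr6:53267405-53267434, minus strand, deleted base 15): taaacagtaatcATTAAAacatttttgatt

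The deleted base was a T in each of these 6 windows. In IDI1 it followed the signal by 5 nt, in ELOVL5 it was inside it, and in the others it preceded it, by 2 nt in ACLY and by 9 nt in SCD. Where a deletion falls within a run of like bases the position is not fixed by the reads, and in all 27706 sites the list gives the lowest coordinate of the run. On the plus strand this is the first base of the run and on the minus strand the last.

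Sites outside this pattern, and members whose sites differ in their signal, are shown by a second set. In NSDHL and in a middle cluster of ACSL3 no signal was found within 25 nt of the deleted base, and here the capital marks that base. HMGCS1 held a site beside each kind of signal, and SCD had a further cluster far before the next annotated end downstream.

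NSDHL (chrX:152869337-152869366, plus strand, deleted base 15): tcatattataccgaTttgttctctgtcttt
ACSL3, middle cluster (chr2:222943033-222943062, plus strand, deleted base 15): gactagttactttgTtgattctcagttact
HMGCS1, site near an end (chr5:43289399-43289428, minus strand, deleted base 20): taactttgaAATAAAgttttagagaaatgt
HMGCS1, other site (chr5:43290753-43290782, minus strand, deleted base 22): atctccaATTAAAaaattttttaacatgta
SCD, middle cluster (chr10:100363581-100363610, plus strand, deleted base 21): atataaacAATAAAaacaactttcacttct

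In total, 131 of the 145 member sites lay in annotated 3′UTRs (90.3%, interval 84.4 to 94.2%), compared with 76.6% of the whole list. With each cluster counted by 1 site, the values were 76.3% (interval 64.0 to 85.3%, 59 clusters) and 62.1%. Sites of a gene are not independent, so these intervals are narrower than the spread between genes. The 3′UTR sites belonged to 27 members and formed 45 clusters, where a cluster joins sites within 50 nt of each other. As background, 37.6% of all protein-coding genes held a site on their strand, 31.8% held a 3′UTR site and 11.5% held at least 2 clusters in the 3′UTR. Among the 35 members these counts were 28, 27 and 11. The number of tags on a transcript depends on its abundance, which was not analysed here, and how far abundance accounts for these counts was not tested. The 3′UTR sites of the members were covered by a median of 10584 tags, whereas those of the whole list were covered by a median of 4926.

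The groups of pathway steps were covered unequally. A 3′UTR site was present in 4 of 7 members of the mevalonate steps and in 6 of 11 members of the steps from squalene to sterol. It was present in each of the 5 regulators, 3 members of fatty acid synthesis, 4 desaturases, 3 elongases and 2 acyl-CoA synthetases. All 8 members without a 3′UTR site were thus enzymes of cholesterol synthesis. In the mevalonate steps these were MVK, which phosphorylates mevalonate, PMVK, which phosphorylates phosphomevalonate, and MVD, which decarboxylates the product. Later in the pathway they were the squalene epoxidase SQLE, the lanosterol synthase LSS, and TM7SF2, HSD17B7 and EBP, which act on sterol intermediates. MVK had 1 site, in a noncoding exon at chr12:109589576 with the deletion in 8 of 8 tags, and the other 7 had none. This split holds for the listed members only. Of 30 other genes of the same routes, counted below, 19 held a 3′UTR site. The fatty acid genes ACACB, ELOVL2, ELOVL3 and ELOVL4 were among those without one. Absence from the list cannot be told apart from low abundance or few tags. The annotated 3′UTRs of the 8 members were 262 nt (EBP) to 2966 nt (LSS) long in all transcripts together, and those of the 27 members with a 3′UTR site were 286 nt (ACAT2) to 5901 nt (SC5D) long. In the representative transcript of each gene, the 8 had 1551 nt (MVK), 392 nt (PMVK), 588 nt (MVD) and 341 nt (SQLE). LSS had 2661 nt, TM7SF2 180 nt, HSD17B7 406 nt and EBP 262 nt. Those of the 27 ran from 59 nt (FDPS) to 5901 nt (SC5D). The part of 3′UTR length in these absences was not tested.

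**Figure D1:**
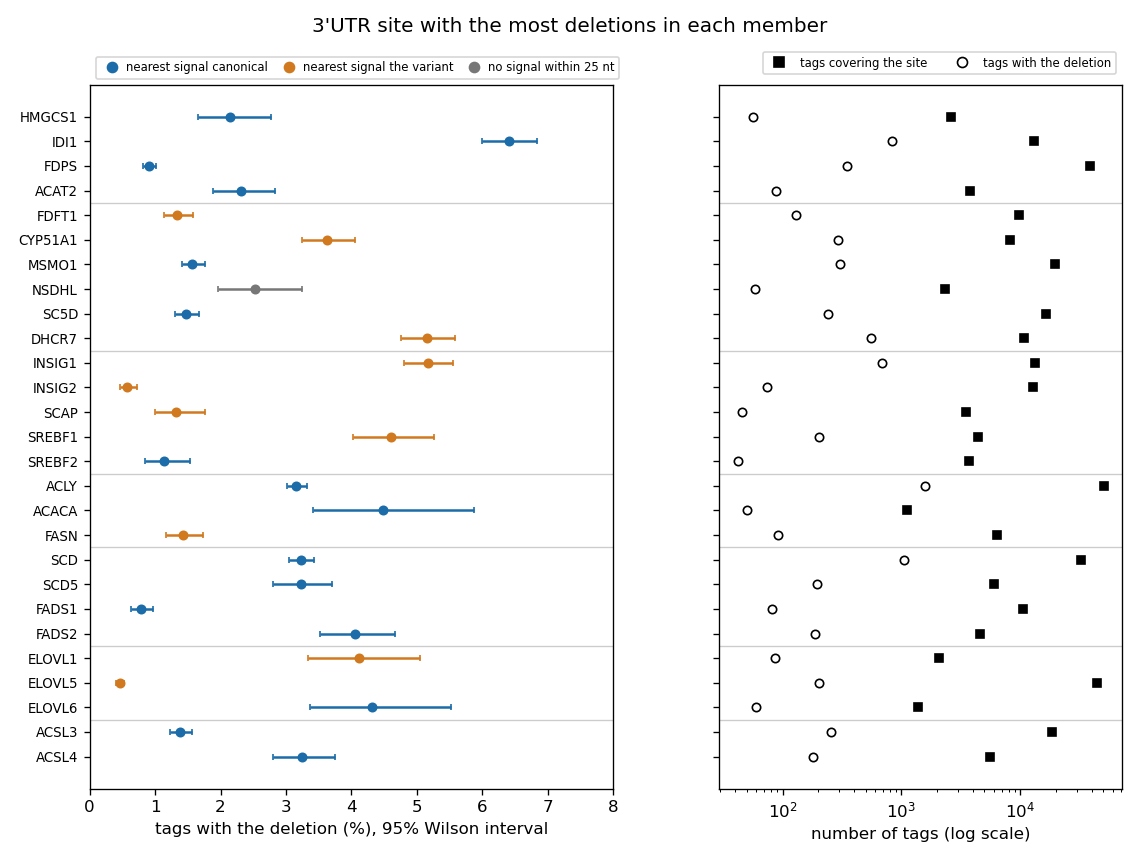
Leading 3′UTR site of each of the 27 members that have one, in pathway order with lines between the step groups. Left, percentage of tags with the deletion with its 95% Wilson interval, coloured by the poly(A) signal nearest to the deleted base (canonical AATAAA, variant ATTAAA or none); right, tags covering the site and tags with the deletion on a log scale. The percentages run from 0.460% in ELOVL5 to 6.41% in IDI1, and IDI1, DHCR7 and INSIG1 are the highest of them.

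Among the mevalonate steps, IDI1 stood out. IDI1, the isomerase that interconverts the isoprenoid building blocks, had deletions in 837 of 13066 tags at chr10:1040041 (6.41%, interval 6.0 to 6.84%), the highest percentage among the 27 leading sites. Of the 6372 genes with a 3′UTR site, it was in place 178 by the number of deletions at its leading site. FDPS, which makes farnesyl diphosphate, was covered more deeply, but its leading site at chr1:155320645 had 348 deletions in 38307 tags (0.908%, interval 0.818 to 1.01%). The FDPS deletions fell on A bases of the signal itself at 2 of 3 sites, with 348 and 346 deletions. The acetoacetyl-CoA thiolase ACAT2 had 88 deletions in 3806 tags (2.31%, interval 1.88 to 2.84%), exactly 100 nt before its end. HMGCS1, the synthase that adds the next acetyl unit, had 56 deletions in 2616 tags (2.14%, interval 1.65 to 2.77%) at chr5:43289409.

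Between squalene and cholesterol, DHCR7, the reductase of the last step, led with 553 deletions in 10720 tags at chr11:71434437 (5.16%, interval 4.76 to 5.59%). Its 4 sites lay within 16 nt of an annotated end, each with ATTAAA as the nearest signal. MSMO1, a methylsterol oxidase, held 8 sites in 1 cluster, with 306 deletions in 19479 tags at the leading one (1.57%, interval 1.41 to 1.76%). The cluster spanned 2 AATAAA signals and 1 ATTAAA between them, so that the signal nearest to the deletion changed along it. The demethylase CYP51A1 had 295 deletions in 8123 tags (3.63%, interval 3.25 to 4.06%), and its 3 sites also lie in 2 overlapping genes without a symbol on the same strand. The sterol desaturase SC5D had 241 deletions in 16329 tags (1.48%, interval 1.30 to 1.67%), and the squalene synthase FDFT1 had 131 in 9820 (1.33%, interval 1.13 to 1.58%). NSDHL, which removes a carboxyl group from sterol intermediates, had a lone site with 59 deletions in 2335 tags (2.53%, interval 1.96 to 3.25%), 12 nt before an annotated end and without either signal.

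All 5 regulators carried a leading site with under 10% of tags deleted, as did all 27 members with one, and their depths ran from 3477 to 13299 tags. INSIG1 had 687 deletions in 13299 tags at chr7:155310213 (5.17%, interval 4.80 to 5.56%). Its paralog INSIG2 was covered almost as deeply, with 12808 tags, but had 74 deletions (0.578%, interval 0.461 to 0.725%). The deleted base was the first T of a run of 4 just before ATTAAA in INSIG1 and an A inside ATTAAA in INSIG2. The SREBF paralogs differed too, since SREBF1 had 202 deletions in 4394 tags (4.60%, interval 4.02 to 5.26%) at a run of 4 T and SREBF2 had 42 in 3675 (1.14%, interval 0.847 to 1.54%) at a C next to its signal. In both pairs the intervals of the leading sites, which cover counting error only, did not overlap. The deleted base also differed within each pair, and its part in the difference was not tested. The INSIG difference holds for the leading sites only. Another INSIG2 site, with a T deleted, had 64 deletions in 497 tags (12.9%, interval 10.2 to 16.1%), above the percentage of INSIG1. SCAP had 46 deletions in 3477 tags (1.32%, interval 0.993 to 1.76%), 2 nt before an annotated end. Its ATTAAA starts 5 nt downstream of the deleted base, thus past that end, and the end of the representative transcript lies at 57 nt. The nearest signal was ATTAAA in INSIG1, INSIG2, SCAP and SREBF1, and AATAAA in SREBF2.

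Fatty acid synthesis held the member site with the most deletions. ACLY, which splits citrate to supply acetyl-CoA to both pathways, had 1591 deletions in 50320 tags at chr17:41866947 (3.16%, interval 3.01 to 3.32%), in place 36 among 6372 genes. Its 8 sites formed 1 cluster, 8 to 40 nt before an annotated end, and were covered by 24559 to 52586 tags. Within the cluster the percentage changed over a few bases. It was 3.16% at the T that precedes the signal by 2 nt, 0.667% at the A inside the signal 3 nt downstream of that T, and 0.161% at the isolated T farther upstream. In contrast, ACACA, the carboxylase that makes malonyl-CoA, had 50 deletions in 1113 tags (4.49%, interval 3.42 to 5.87%), the lowest depth among the leading sites. FASN, which builds palmitate, had 91 deletions in 6394 tags (1.42%, interval 1.16 to 1.74%), on a G that follows ATTAAA by 7 nt.

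Among the desaturases, SCD, which makes oleate from stearate, held 20 sites, more than any other member, and its leading site had 1056 deletions in 32684 tags at chr10:100364796 (3.23%, interval 3.04 to 3.43%). SCD5, its paralog, had 194 deletions in 6008 tags (3.23%, interval 2.81 to 3.71%), the same percentage at a lower depth. FADS2 and FADS1, which desaturate polyunsaturated fatty acids and overlap on opposite strands of chromosome 11 in the annotation, differed. FADS2 had 186 deletions in 4587 tags (4.05%, interval 3.52 to 4.67%) at a run of 6 T before AATAAA. FADS1 had 82 in 10505 (0.781%, interval 0.629 to 0.968%) at an A that the list places inside AATAAA. That A belongs to a run of 5 A that extends beyond the signal, so the deletion may lie outside it.

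The elongases included the lowest percentage. ELOVL5, which elongates polyunsaturated chains, had 203 deletions in 44172 tags (0.460%, interval 0.401 to 0.527%). ELOVL1 had 86 in 2091 (4.11%, interval 3.34 to 5.05%) and ELOVL6 had 60 in 1389 (4.32%, interval 3.37 to 5.52%). Among these 3 genes the percentage was higher where the depth was lower. In the whole list, sites under 30% had a median of 6180 tags, and sites of 30% or more a median of 16. No listed site had under 7 deletions, so a site with few tags could be listed only with a high percentage. A relation of percentage to depth was not tested. The site of ELOVL6, which elongates palmitate, lay 3582 nt before the annotated end, with AATAAA starting 20 nt downstream of the deleted base. Of the acyl-CoA synthetases, ACSL3 had 254 deletions in 18345 tags (1.38%, interval 1.23 to 1.56%). ACSL4, which favours arachidonate, had 180 in 5546 (3.25%, interval 2.81 to 3.75%). ACSL4 held 8 sites in 1 cluster with 863 deletions in all, and 7 of them had AATAAA in the window.

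Over the 27 leading sites, 24 lay within 100 nt of an annotated end and 26 had a signal no farther than 25 nt away, AATAAA in 16 and ATTAAA alone in 10. Over the leading sites of all 6372 genes, 72.0% lay within 100 nt of an end, 59.7% had AATAAA and 14.5% had ATTAAA alone. The exceptions by distance were IDI1 at 622 nt, INSIG2 at 991 nt and ELOVL6 at 3582 nt, and the exception by signal was NSDHL. Other leading sites also lay beyond 100 nt when measured to the end of the representative transcript. These were HMGCS1 (1939 nt), FDFT1 (346 nt), NSDHL (378 nt), SC5D (4791 nt), SREBF1 (775 nt) and ACSL3 (2456 nt). The deleted base was T at 21, A at 4, C at 1 (SREBF2) and G at 1 (FASN), and 17 of the 21 T were in runs of at least 3. All 27 had deletions in under 10% of their tags, compared with 80.7% of leading sites of all genes, and their median depth was 8123 tags against 2872. At 19 of the 27 there were more deletions than the median of 82 over all genes.

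Across all 131 member 3′UTR sites, the median distance to the nearest annotated end downstream was 31 nt (quartiles 15 and 226 nt), and over the whole list it was 38 nt (18 and 349 nt). Of the 131, 94 were no farther than 100 nt from an end (71.8%, interval 63.5 to 78.8%), and in the list this held for 65.8% of 21230 3′UTR sites. A signal was in the 51-nt window of 97 sites (74.0%, interval 65.9 to 80.8%), compared with 65.4%. This was read on the transcript strand only. The canonical AATAAA was as frequent as in the list, with 53.4% and 52.6%. Windows that held ATTAAA and no AATAAA made up 27 of 131 (20.6%, interval 14.6 to 28.3%), compared with 12.8% of the list. These 27 windows are not independent, since several are neighbouring sites of DHCR7, INSIG1 and ELOVL5, and with 1 site per cluster the values were 12 of 45 (26.7%, interval 16.0 to 41.0%) and 13.2%.

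**Figure D2:**
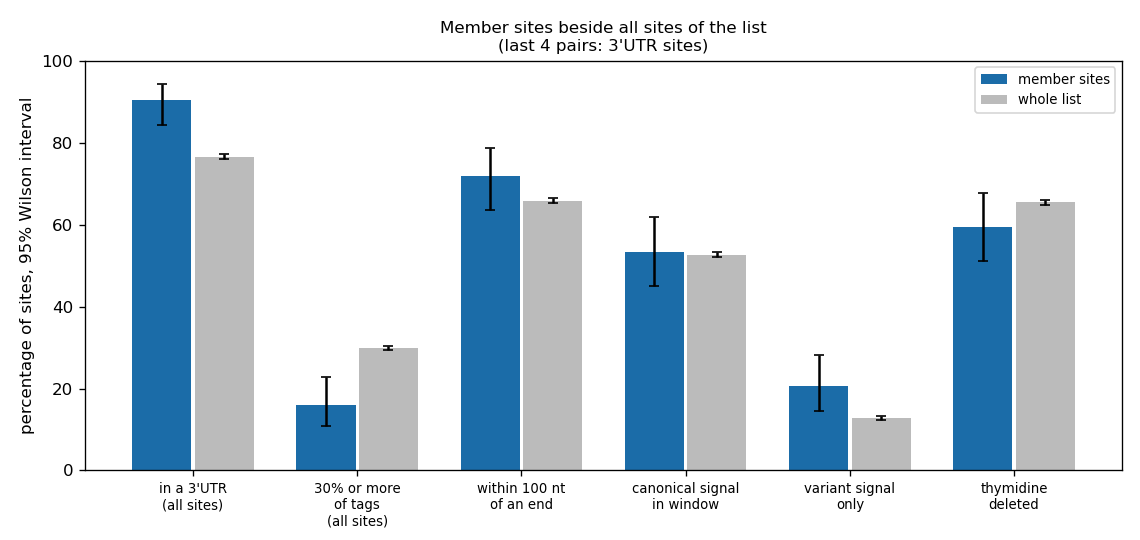
Percentages of sites with 95% Wilson intervals for the member sites (blue) and the whole list (grey). The first 2 pairs are over all sites (145 and 27706), and the last 4 over 3′UTR sites (131 and 21230). The member values are higher for 3′UTR location (90.3 and 76.6%, or 76.3 and 62.1% with 1 site per cluster) and for the variant signal alone (20.6 and 12.8%), and lower for deletions in 30% or more of tags (15.9 and 29.9%).

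The study reported an AUA motif as enriched among RBMS3 sites. Here the members are set beside other listed sites only, so these values do not address that enrichment. The motif was searched as a 7-nt pattern with ATA at its centre, whose first base is any but C, whose second and sixth are A or T, and whose last is A. It was in the windows of 56 member 3′UTR sites (42.7%, interval 34.6 to 51.3%), compared with 51.7% of the list. The pattern can overlap AATAAA, because AATAAA preceded by any base but C spells it. With matches that contain AATAAA left out, 15 windows remained (11.5%, interval 7.06 to 18.0%), compared with 15.5%. Among the leading sites the motif was in 11 windows, and in 2 of them (ACAT2 and ACSL3) a match did not contain AATAAA. A match or its absence describes only the letters in the window.

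Relative to the nearest signal, the deleted base lay upstream at 45 of 97 sites, inside it at 18 and downstream at 34. These shares (46.4, 18.6 and 35.1%) were close to those of the list (46.3, 16.3 and 37.4%). T was deleted at 78 of the 131 3′UTR sites (59.5%, interval 51 to 67.6%) and A at 34 (26.0%, interval 19.2 to 34.1%), while the list had 65.5% and 21.5%. The percentage of tags with the deletion differed by base. At 3′UTR sites with deletions in under 30% of tags, the median was 1.51% for T (73 sites), 0.570% for A (32 sites) and 0.543% for C or G (17 sites). The list had the same order, with 2.18, 0.862 and 0.695%. The leading sites of FDPS (0.908%), INSIG2 (0.578%) and FADS1 (0.781%) had an A deleted, as did that of SCAP (1.32%), and the part of the deleted base in the differences between members was not tested.

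**Figure D3:**
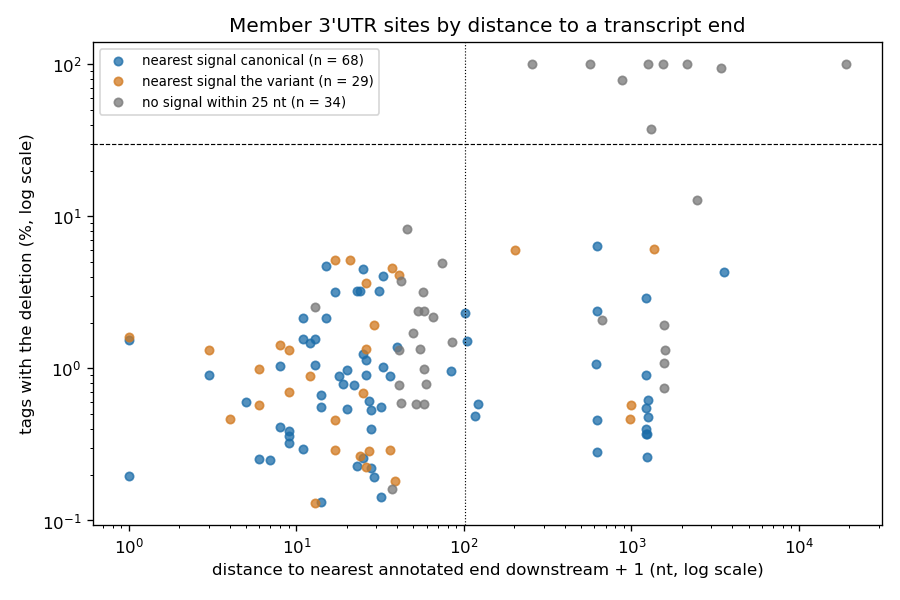
Each of the 131 member 3′UTR sites by its distance to the nearest annotated end downstream (1 nt added, log scale) and its percentage of tags with the deletion (log scale), coloured by the nearest poly(A) signal. The dotted line marks 100 nt and the dashed line 30% of tags. All 9 sites above 30% lie beyond 100 nt and have no signal within 25 nt, whereas 94 of the other sites lie within 100 nt.

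Clusters far from the last annotated end were found in several members, and 11 had at least 2 clusters in the 3′UTR. In SCD the 20 sites fell into 3 clusters. The distal one, 6 to 84 nt before the end, had 10 sites and 66.6% of the 3650 deletions. The middle one, 1214 to 1253 nt before the only end annotated downstream, had 9 sites and 32.9% of the deletions, and AATAAA was in the window of each of them. Its depth (10584 to 23215 tags) was of the same order as that of the distal cluster (3427 to 35709 tags), and its leading site, at chr10:100363601, had 526 deletions in 18193 tags (2.89%, interval 2.66 to 3.14%). The third was a lone site with 19 deletions in 20 tags.

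ACSL3 had 13 3′UTR sites in 4 clusters. The cluster at the proximal annotated end, 13 to 58 nt before it and 2456 nt before the last end at its leading site, had 6 sites, up to 30084 tags and 57.5% of the 1436 deletions. The distal cluster, 7 to 14 nt before an annotated end, had 2 sites, up to 6721 tags and 21.2%. Between them, 4 sites at 1562 to 1588 nt from the next end had up to 6968 tags and 20.8% of the deletions, and no signal was in the window of any of them. The remaining site had 7 deletions in 7 tags and is in a coding exon of the representative transcript. SC5D showed a similar imbalance between its ends. Its proximal cluster, at an annotated end 4791 nt before the last one at its leading site, held 93.9% of the 753 deletions, with up to 17356 tags, and the distal site had 46 deletions in 2162 tags (2.13%, interval 1.60 to 2.83%).

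INSIG1 had 9 3′UTR sites in 4 clusters. The distal cluster, 16 to 57 nt before an annotated end, had 5 sites and 85.3% of the 1316 deletions. Farther upstream, at 41 and 54 nt before a shorter annotated end, 2 sites without a signal had 95 deletions in 2515 tags and 37 in 2748. A site upstream of these, beside ATTAAA, had 43 deletions in 720 tags (5.97%, interval 4.46 to 7.95%), and another had 18 in 18. INSIG2, in contrast, had none of its 4 sites in the 100 nt before an annotated end. The pair beside ATTAAA, at 983 and 991 nt, had 12091 and 12808 tags, whereas a site at 2459 nt without a signal had 64 deletions in 497 tags (12.9%, interval 10.2 to 16.1%), and the last had 11 in 11.

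IDI1 was similar to INSIG2 in that its main cluster lay far before the next annotated end downstream. The 6 sites at 615 to 666 nt held 97.3% of its 1546 deletions, with 6452 to 13225 tags, and 5 of them had AATAAA in the window. Deletions at 2 neighbouring T runs of IDI1, 837 and 305, exceeded the 60 and 37 at the A bases between and before them, and the next T had 131. The other IDI1 site had 41 deletions in 110 tags (37.3%, interval 28.8 to 46.6%), on a C at 1298 nt. HMGCS1 had 32 deletions in 522 tags (6.13%, interval 4.38 to 8.53%) at a run of 6 T, 1366 nt before an annotated end, beside its more deeply covered site 14 nt before a proximal end.

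In the other members with several clusters, 1 cluster held most deletions. It held 91.3% in FDFT1, 87.1% in SCD5, 83.7% in FADS1 and 96.7% in ELOVL5. The additional clusters of FDFT1, FADS1 and ELOVL5 consisted of sites where the deletion was in 26 of 26 tags, 48 of 48 tags, and 21 of 21 and 11 of 14 tags. The additional SCD5 site had 37 deletions in 754 tags (4.91%, interval 3.58 to 6.69%) and lay 51 nt from the next one, just beyond the limit for joining. Thus 37 of the 131 3′UTR sites lay more than 100 nt before the next annotated end downstream. Of them, 22 had a signal in the window (59.5%, interval 43.5 to 73.7%), compared with 49.0% in the list. Of these 22, SCD held 9, IDI1 held 5, MSMO1 held 3, INSIG2 held 2, and HMGCS1, INSIG1 and ELOVL6 held 1 each. Within 100 nt the signal was present at 75 of 94 sites (79.8%), compared with 73.9%.

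**Figure D4:**
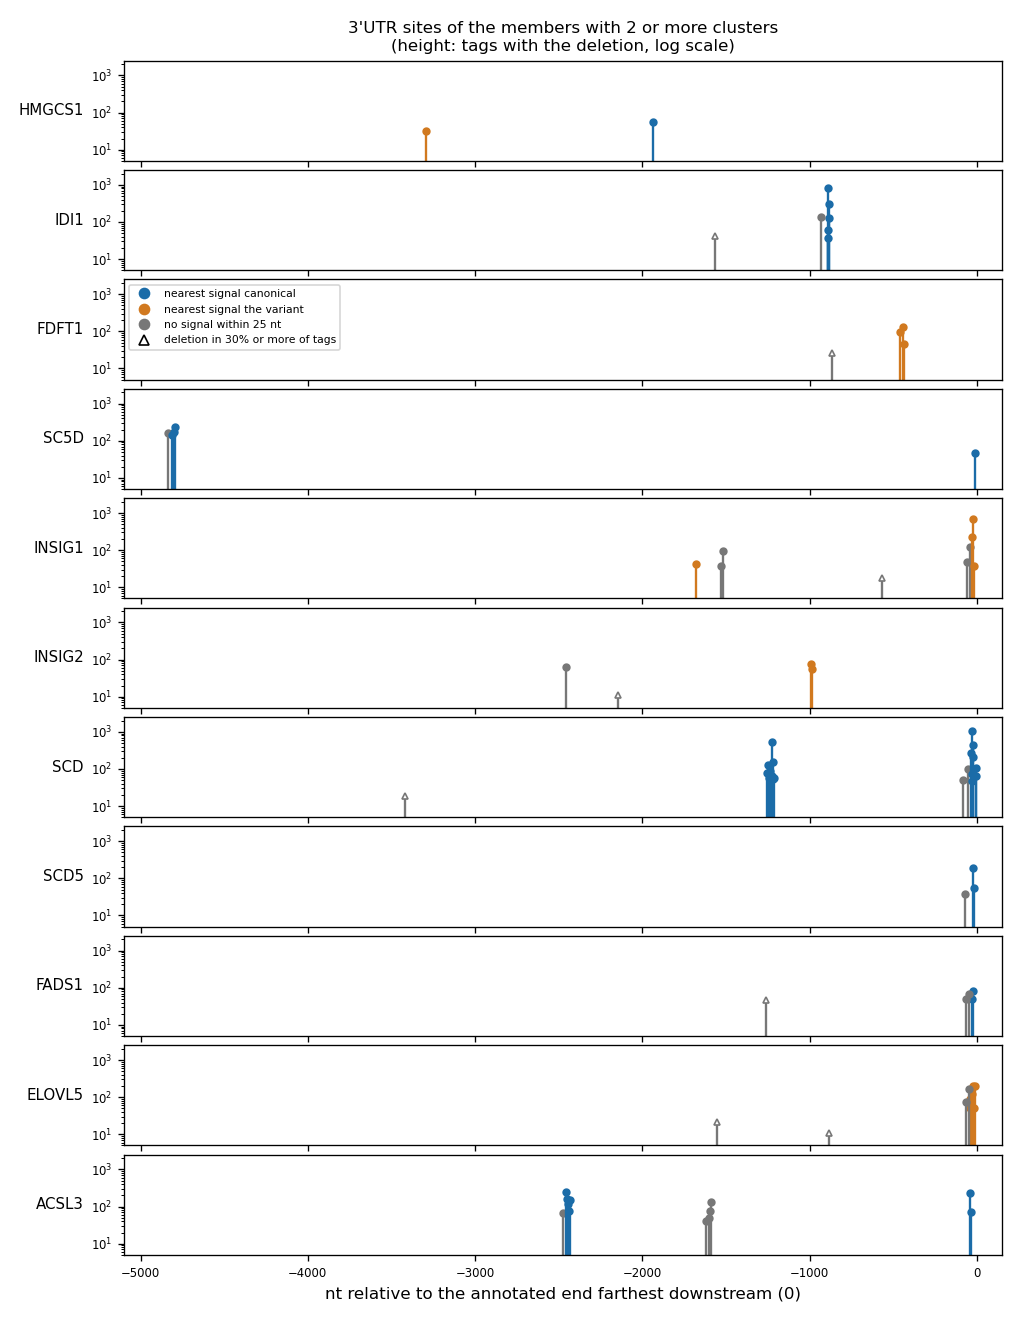
3′UTR sites of the 11 members with at least 2 clusters, by their distance from the annotated end farthest downstream (0, in nt) and by the number of tags with the deletion (height, log scale). Colours give the nearest poly(A) signal, and open triangles mark deletions in 30% or more of tags. SCD has a middle cluster at 1214 to 1253 nt beside a distal one, and SC5D and ACSL3 have most deletions at a proximal end. The ACSL3 site 21516 nt from the last end is left out.

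Deletions in 30% or more of the tags were present at 23 of the 145 member sites (15.9%, interval 10.8 to 22.7%), compared with 29.9% of the list. With 1 site per cluster these values were 39.0 and 51%. They had 7 to 110 tags, with a median of 18, whereas the other 122 had 497 to 52586. At 16 of them every tag carried the deletion. Without a control library, whether deletions at such sites mark contacts was not tested. All 122 sites with lower percentages were in 3′UTRs (interval 96.9 to 100%), compared with 95.2% in the list, while 9 of the 23 were. The 14 sites outside 3′UTRs were thus all of this kind. There was 1 in a 5′UTR (FADS1) and 3 in coding exons (HMGCS1, FADS2 and ELOVL5). Noncoding exons held 2 (MVK and ACSL3) and introns held 8, of which ACACA and ELOVL5 had 2 each and ACAT2, INSIG1, SCD5 and ACSL4 had 1 each. The deepest of the 14 was the ACSL3 site with 27 deletions in 46 tags (58.7%, interval 44.3 to 71.7%), and the coding site of HMGCS1 had 23 in 23.

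A further 30 genes of the same routes that were not members were counted in the same way. Of these, 19 held a 3′UTR site and 11 held at least 2 clusters, with 88 sites in all, 87 of them in 3′UTRs. HSD17B12, the ketoacyl-CoA reductase that works with the ELOVL enzymes, is named because of its values: it had the most deletions of them, 4117 at 13 sites, more than any of the 35 members. Of the elongases outside the members, ELOVL7 had 2 3′UTR sites with 91 deletions, and ELOVL2, ELOVL3 and ELOVL4 had no site. ACACB, the other acetyl-CoA carboxylase, had no site either.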

How the data were processed

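RNA bound by FLAG-tagged RBMS3 was analysed by CLIP-seq in 2 biological replicates of MDA-MB-231. The authors collapsed reads by molecular identifiers with the CLIP Tool Kit, aligned them to hg38, pooled the unique tags of both replicates and called deletion sites, which they filtered by false discovery rate and by a fold whose definition is not given in the sources used here. Recovered RNA was given a poly(A) tail for oligo(dT) capture, and natural tails can be captured likewise, which bears on results near transcript ends. The deposited values are counts of covering tags and of tags with the deletion, not normalized. The total depth of the libraries was not analysed here.

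The deleted base is the centre of each 21-nt interval. Sites were placed on all GENCODE 44 transcripts of the gene's strand, in the order 3′UTR, 5′UTR, coding exon, noncoding exon and intron. Distances run to the nearest downstream end of a complete transcript with a 3′UTR, so an end just upstream of a site was not counted. No test was made, since there is 1 group and 1 list, so members are set beside the whole list. The members, lists, step groups and the rule for what is named were chosen with earlier results of these data known. Every member is named, with its leading 3′UTR site, all clusters where there are at least 2, and its sites outside 3′UTRs. Sequences are printed for the leading site of 6 of the 7 step groups and for 5 other sites chosen by their signal or cluster, and that of the remaining group is not reported here. Placement was tested on simulated data, and 900 of 900 made-up sites were right. Alternatives varied the sites counted, annotation, strand, window and motif, and 2 were added after the data were seen (sites with deletions in under 30% of tags, ends of all transcripts). The tools were samtools 1.23.1, Python 3.11.15, scipy 1.17.1, numpy 2.4.6, matplotlib 3.10.9 and pysam 0.24.0.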

Additional observations from a re-analysis of the deposited data

How the results depend on the processing

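The counts of members with a site and with a 3′UTR site stayed within 1.5 times under every alternative except sites with deletions in at least 10% of tags, which left 15 and 8 members. Those 24 sites, 10 of them in 3′UTRs, had T deleted at 58.3%, close to the 59.3% of all member sites, and other values in the other measures: 41.7% were in 3′UTRs, the median distance was 1424 nt, 0% lay within 100 nt of an end, 0% had a signal, 10.0% had the AUA motif and the median percentage of tags with the deletion was 100%. The 3′UTR percentage was 96.2% with at least 20 deletions per site, 100% with at least 50 deletions, 76.3% when each cluster counted by 1 site, and 100% for deletions in under 30% of tags. With at least 50 deletions, 79.0% lay within 100 nt and 82.0% had a signal. With 1 site per cluster, 62.2% lay within 100 nt, 33.3% had the AUA motif, 71.2% had T deleted and the median percentage of tags with the deletion was 4.91%. On the representative transcript the median distance was 57 nt and 57.4% lay within 100 nt. Windows of 10 and 50 nt on each side held a signal at 33.6 and 87.8% of sites and the AUA motif at 17.6 and 52.7%. AATAAA alone gave 53.4%, and AUA matches without AATAAA 11.5%. The other 40 values stayed within the counting interval of the reported one or within 1.5 times the count. No paired analysis was possible because the only list joins the tags of both replicates of the only group, and for the same reason no replicate could be left out.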
